A study of Homo sapiens with 4 samples.

Results

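The genes described here encode 5 glycoproteins that macrophages release: CHI3L1, SPP1, HP, FN1 and TGFBI. They were named as a group with their change in these libraries known, and each was located in the deposited table by its Ensembl identifier. The table listed 17656 genes, and 4 of the 5 had a row. FN1 had none and was not analysed here. RNA was sequenced from U937, a human monocytic leukemia cell line in long use, in 4 libraries. The group sh-ZNF217 (n = 2) was labelled as cells whose ZNF217 was knocked down, and the group NC (n = 2) as cells with no treatment. ZNF217 is a zinc finger protein that recruits corepressors to DNA. The methods of the study described both hairpin knockdown and CRISPR-Cas9 knockout lines of U937, and the study named these libraries a knockdown in its sequencing methods, as the labels did, but a knockout in its results. Elsewhere the study used NC for negative controls, the hairpin sh-NC and the nontargeting guide sgNC. Whether the NC cells sequenced here carried such a control is therefore unclear. Values were TPM, a measure of transcript share scaled for transcript length and for the library's total, so that levels of different genes could be set side by side.

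ZNF217 itself had 35.8 and 35.0 TPM in the sh-ZNF217-labelled libraries, against 36.1 and 36.7 TPM in the NC libraries (log2 fold change -0.04, 95% interval -0.22 to 0.14, limma adjusted p = 0.74). The mRNA level of the target therefore did not distinguish the groups, and within these libraries each direction below rests on the label alone. Apart from them, the study measured CHI3L1 and CD36 by qRT-PCR in U937 cells with ZNF217 knocked down. It reported the same trend there as in its RNA sequencing. TPM keeps no read numbers, so the depth was unknown, and the number of genes at 1 TPM or more was 14402 to 14421 in the sh-ZNF217-labelled libraries and 14080 to 14101 in NC. All 12 monocytic markers had a row. Among them SPI1, the lineage factor PU.1, lay between 316 and 356 TPM over the 4 libraries, but CD14 reached at most 2.79 TPM and MPO at most 0.513 TPM. Whether the 2 libraries of a group stem from separate cultures was not stated in the labels, so that a p-value below covers only the variation among these 4 libraries, which may be technical.

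The 5 proteins are secreted and act outside the cell. CHI3L1, also called YKL-40, is a lectin of the chitinase family that binds chitin without cleaving it. SPP1, or osteopontin, is a phosphorylated adhesion protein bound by integrins and by CD44. HP, or haptoglobin, captures free hemoglobin, and the complex is taken up through the macrophage receptor CD163. It is made mainly in the liver and is also found in the granules of neutrophils. TGFBI and FN1 (fibronectin) are adhesion proteins of the extracellular matrix, and TGFBI is a known target of TGF-beta.

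The windows before the start sites of CHI3L1 and SPP1 are shown because both genes moved in the same direction from starts that differ in base composition. They are RefSeq sequences of GRCh38.p14, written 5′ to 3′ on the strand of the gene, with matches to short motifs in capitals. The CHI3L1 window is chr1:203186705-203186954 on the minus strand and ends at the base before the start. The SPP1 window is chr4:87975464-87975666 on the plus strand and was ended before the start that GENCODE gives, which lies upstream of that of RefSeq.
CHI3L1: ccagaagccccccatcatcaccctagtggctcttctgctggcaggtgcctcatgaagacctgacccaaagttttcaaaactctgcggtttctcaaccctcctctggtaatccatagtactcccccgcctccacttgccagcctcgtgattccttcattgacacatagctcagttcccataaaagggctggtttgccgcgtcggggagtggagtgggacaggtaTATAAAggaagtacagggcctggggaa
SPP1: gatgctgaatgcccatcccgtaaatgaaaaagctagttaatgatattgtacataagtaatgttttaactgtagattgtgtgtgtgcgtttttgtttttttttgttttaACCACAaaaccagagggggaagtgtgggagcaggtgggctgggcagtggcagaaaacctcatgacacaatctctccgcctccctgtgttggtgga

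Of the 5 genes, 4 had a promoter entry. HP had none. Both strands of the 250 bases before the RefSeq start were searched for TATAAA (the TATA box), TGANTCA (AP-1), TTGCNNAA (C/EBP), GAGGAA (PU.1 and other ETS factors) and TGTGGT (RUNX). These letters were chosen after the expression values were known. The capitals in CHI3L1 mark TATAAA at 27 to 22 bases before the start, a motif held by 11.1% of 27305 promoters. The capitals in SPP1 mark the reverse strand of TGTGGT at 142 to 137 bases before the RefSeq start, a motif held by 10.9% of promoters. TGFBI held GAGGAA at 240 to 235 bases before the start, as did 23.4% of promoters somewhere in the window. AP-1 and C/EBP letters, held by 6.60% and 9.13% of promoters, were in none of the 4 windows. The GC content was 54.0% for CHI3L1, 44.8% for SPP1, 76.4% for FN1 and 72.8% for TGFBI, against a median of 58.0%, so that SPP1 had more GC than only 22.2% of promoters. A match of letters is a description of the sequence and not a bound site.

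The order of the levels differed between the groups. In both sh-ZNF217-labelled libraries the order was CHI3L1, HP, SPP1 and TGFBI. In both NC libraries CHI3L1 was also the highest, followed by SPP1, whereas the lowest was HP in replicate 1 and TGFBI in replicate 2. The 4 levels were apart beyond their spread in the sh-ZNF217-labelled libraries, while in NC the ranges of SPP1 and HP overlapped, as did those of HP and TGFBI. The ratio of HP to SPP1 was 1.41 and 1.56 in the sh-ZNF217-labelled libraries, and 0.247 and 0.892 in the NC libraries. Summed, the 4 genes had 423 and 435 TPM in the sh-ZNF217-labelled libraries, or 0.0424% and 0.0435% of the total, against 78.2 and 95.0 TPM in the NC libraries. CHI3L1 made up 78.8% and 79.4% of that sum in the sh-ZNF217-labelled libraries, and 97.6% and 92.9% in NC.

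**Figure D1:**
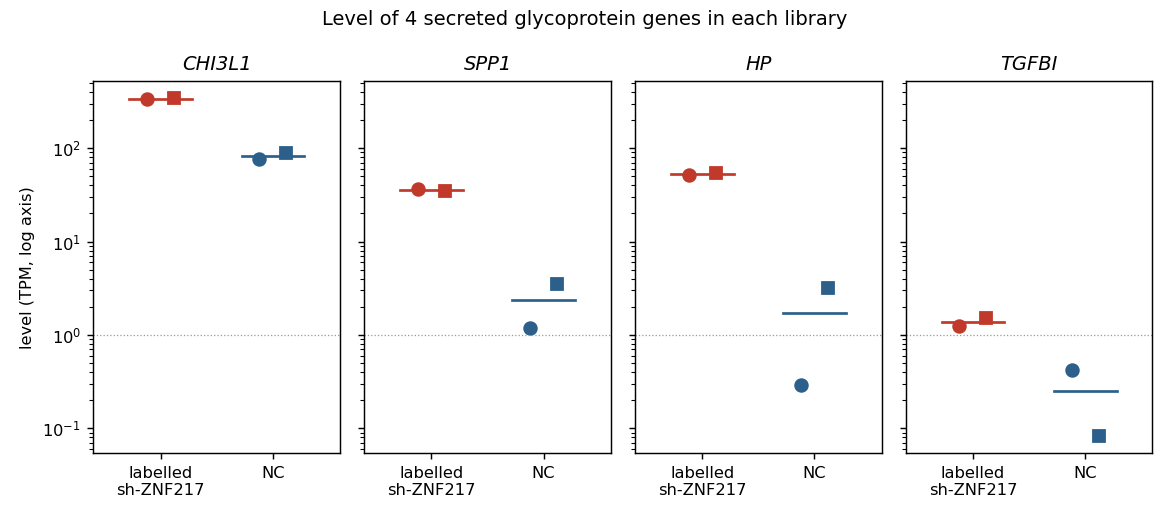
Level of CHI3L1, SPP1, HP and TGFBI in TPM (log axis), with a circle for replicate 1, a square for replicate 2 and a horizontal bar for their mean, for the sh-ZNF217-labelled libraries (left in each panel) and NC (right). The dotted line marks 1 TPM. The NC points of HP lie far apart, at 0.294 and 3.15 TPM, while those of CHI3L1 lie close together, at 76.3 and 88.2 TPM.

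CHI3L1 (ENSG00000133048) lies on chromosome 1 (203178931 to 203186704, minus strand, hg38), with 10 exons in the canonical transcript of 1747 nt. It had 333 and 345 TPM in the sh-ZNF217-labelled libraries, against 76.3 and 88.2 TPM in the NC libraries. The groups did not overlap, and the 4 ratios that a sh-ZNF217-labelled library can form with an NC library ran from 3.78 to 4.52. It was the only gene of the group that was already abundant in NC, where it ranked 2268 and 1967 by level among the listed genes. In the sh-ZNF217-labelled libraries it ranked 393 and 379. The means were 339 ± 8.44 TPM and 82.3 ± 8.42 TPM (SD, n = 2 each), and the log2 fold change of TPM + 1 was 2.03. In a bulk library, more cells that express a gene and more RNA per cell cannot be told apart, which holds for every gene below.

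SPP1 (ENSG00000118785) is on the plus strand of chromosome 4 (87975667 to 87983532, hg38), with 7 exons in a canonical transcript of 1561 nt. It had 36.7 and 34.5 TPM in the sh-ZNF217-labelled libraries, against 1.19 and 3.54 TPM in the NC libraries. The groups did not overlap, but the NC libraries differed by a ratio of 2.97, so that the ratio of the mean in the sh-ZNF217-labelled libraries was 29.8 over NC replicate 1 and 10.1 over NC replicate 2. The means were 35.6 ± 1.55 TPM and 2.36 ± 1.66 TPM (SD, n = 2 each), and the log2 fold change of TPM + 1 was 3.54. Leaving out NC replicate 1 made it 3.01, and leaving out NC replicate 2 made it 4.06. SPP1 shares exon bases with ENSG00000286618 on the other strand, which had no row, and the use of strand in counting is not given in the sources used here.

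HP (ENSG00000257017) is on the plus strand of chromosome 16 (72054505 to 72061055, hg38), with 7 exons in a canonical transcript of 1534 nt. It had 51.9 and 53.6 TPM in the sh-ZNF217-labelled libraries, against 0.294 and 3.15 TPM in the NC libraries. The sh-ZNF217-labelled libraries were close to each other, while NC replicate 2 was 10.7 times NC replicate 1, the widest gap of the 4 genes in that direction. The ratio of the mean in the sh-ZNF217-labelled libraries was therefore 179 over NC replicate 1 and 16.7 over NC replicate 2, and its size depends on which NC library is used. The means were 52.8 ± 1.23 TPM and 1.72 ± 2.02 TPM (SD, n = 2 each), with a ratio of 30.6. The log2 fold change of TPM + 1 was 4.53, with 3.69 without NC replicate 1 and 5.38 without NC replicate 2. The near-identical gene HPR had no row, and how reads shared by HP and HPR were assigned is not given, so the level of HP is uncertain to that extent.

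TGFBI (ENSG00000120708) is on the plus strand of chromosome 5 (136028988 to 136063818, hg38), with 17 exons in a canonical transcript of 2712 nt. It had 1.25 and 1.51 TPM in the sh-ZNF217-labelled libraries, against 0.423 and 0.0819 TPM in the NC libraries. The groups did not overlap, yet the level was low in all 4 libraries, and the gene ranked 13915 and 13448 by level in the sh-ZNF217-labelled libraries and 15759 and 17245 in NC. Here NC replicate 1 was the higher of the NC libraries, unlike in CHI3L1, SPP1 and HP. The log2 fold change of TPM + 1 was 0.94, and with a pseudocount of 0.1 TPM it was 2.26.

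All 4 genes passed the filter on low values, which asked for at least 1 TPM in 2 libraries. SPP1 and CHI3L1 passed in all 4 libraries and HP in 3. TGFBI passed through the sh-ZNF217-labelled libraries alone and so had to be higher there. The call for all genes required limma's adjusted p to be below 0.05 and the log2 fold change to exceed 0.5 in size. By that measure CHI3L1, SPP1 and HP were called higher and TGFBI was not, beside 6.26% of the 14582 tested genes called higher and 2.46% called lower. HP missed the call when either sh-ZNF217-labelled library was left out, which left 2 genes called. Both sh-ZNF217-labelled libraries lay above both NC libraries in 33.5% of tested genes. The 5 genes were chosen on this contrast, so nothing is read from these counts. By log2 fold change HP ranked 1, SPP1 ranked 2, CHI3L1 ranked 42 and TGFBI ranked 480 among the tested genes.

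The gap between the NC libraries is given as a description, since that of HP and SPP1 was already known when the genes were chosen. On the log2 scale of TPM + 1 the NC libraries differed by 1.68 for HP, 1.05 for SPP1, 0.21 for CHI3L1 and 0.40 for TGFBI. Between the sh-ZNF217-labelled libraries the gaps of the 4 genes were 0.05 to 0.16, against a median of 0.13 over all tested genes. NC replicate 2 was above NC replicate 1 in 53.5% of the 913 genes called higher, in 45.4% of the 359 called lower and in 51.2% of all tested genes, so that this direction was about as frequent among the genes called higher as over all genes.

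**Figure D2:**
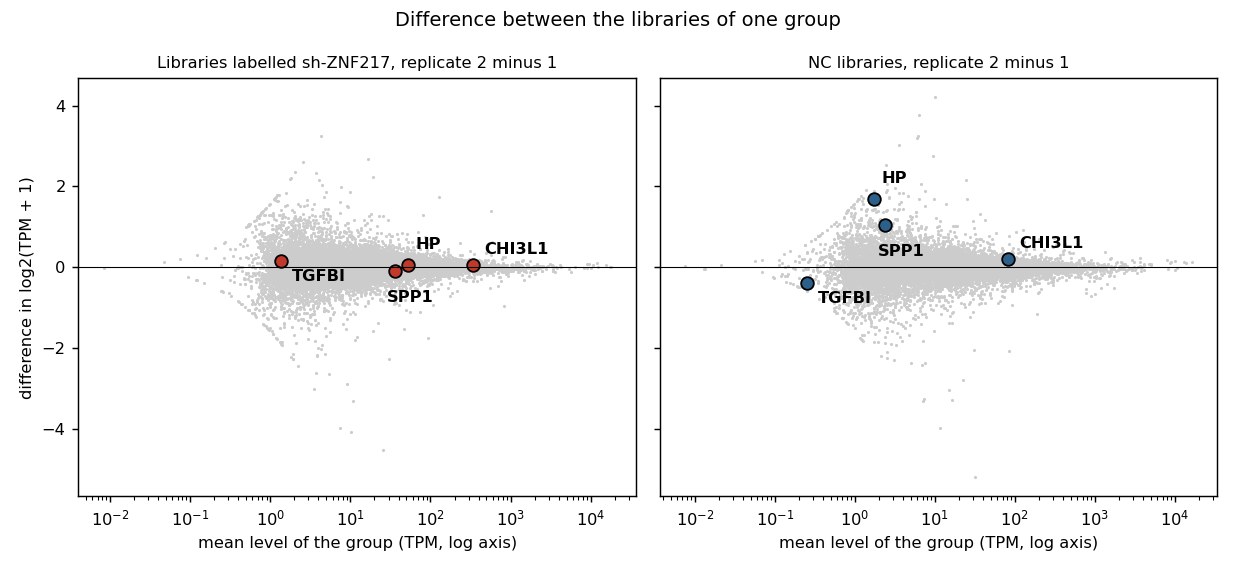
Difference in log2(TPM + 1) between replicate 2 and replicate 1 of a group on the vertical axis against the mean level of that group in TPM on a log axis, for the sh-ZNF217-labelled libraries (left) and NC (right), with a grey point for each tested gene and the 4 genes marked. HP lies at 1.68 and SPP1 at 1.05 in the NC panel, and the 4 genes lie near 0 in the sh-ZNF217-labelled libraries.

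Markers of other cells that make these proteins were read beside them. None of 9 hepatocyte markers, among them ALB and TTR, had a row. Of 8 fibroblast markers only PDGFRB had a row, with 1.40 and 1.10 TPM in the sh-ZNF217-labelled libraries and 1.21 and 0.777 TPM in NC, while COL1A1, COL1A2, COL3A1 and DCN had none. The 12 monocytic markers summed to 7139 and 7032 TPM in the sh-ZNF217-labelled libraries, against 4454 and 4522 TPM in NC, with most of it from LYZ, and 6 of them were called higher. MPO was not tested. CD14 passed the filter through the sh-ZNF217-labelled libraries alone and was not called. Of 7 T and NK markers 2 had a row, with sums of 41.9 and 37.3 TPM in the sh-ZNF217-labelled libraries against 32.2 and 26.7 TPM in NC, and CD2 was called higher. Of 4 B-cell markers 3 had a row, summing to 4.45 to 7.06 TPM in the sh-ZNF217-labelled libraries and 5.51 to 10.7 TPM in NC, and PAX5 was called lower. No erythroid or epithelial marker had a row. The calls among the markers stand beside 6.26% called higher and 2.46% called lower over all tested genes. The part of the monocytic markers in the change of the 4 genes was not tested.

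Receptors of the secreted proteins were examined next. Of 18 listed, 12 had a row and 8 were tested, of which 3 were called higher and none lower, with a median log2 fold change of 0.38 beside 0.02 over all tested genes. The counts of this list and of those below stand beside 6.26% called higher and 2.46% called lower over all tested genes. At an unadjusted p below 0.05 in limma, 6 were higher and 1 lower. The share of all tested genes below that p is not given here, so such counts, here and below, are description only. The threshold is loose, as MMP9, at an unadjusted p of 0.0473 in limma, had an adjusted p of 0.14. ITGAV, a subunit of integrins that bind osteopontin, had 12.6 and 12.3 TPM in the sh-ZNF217-labelled libraries against 4.96 and 5.44 TPM in NC (log2 fold change 1.12, SE 0.13, limma adjusted p = 0.00806). ITGA3, a laminin-binding subunit, was higher (log2 fold change 0.86, limma adjusted p = 0.0183). SDC4, a heparan sulfate proteoglycan that helps cells bind fibronectin, was higher (log2 fold change 0.65, limma adjusted p = 0.00662) and kept that call with any 1 library left out. The abundant osteopontin receptor CD44 had 161 and 162 TPM in the sh-ZNF217-labelled libraries against 150 and 166 TPM in NC (limma adjusted p = 0.74, log2 fold change 0.04). ITGB1, the partner of many of these subunits, had a log2 fold change of 0.35, short of the 0.5 minimum (limma adjusted p = 0.0241). The integrin partners ITGB3, ITGB6 and ITGB8 and the CHI3L1 receptor IL13RA2 had no row, and CD163, the receptor of the haptoglobin complex, stayed at 0.547 to 1.58 TPM. The call of ITGAV was lost without either sh-ZNF217-labelled library (log2 fold change 1.06 to 1.17), and that of ITGA3 also without NC replicate 1 (0.84 to 0.89), where the ranges here and below cover leaving out each of the 4 libraries in turn. The receptors called higher were then 1 without either sh-ZNF217-labelled library, 2 without NC replicate 1 and 3 without NC replicate 2.

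Few relatives of the 5 genes by sequence family were measured. Of 6 other chitinase family genes 4 had a row and 3 were tested, and none was called by limma, with 1 higher at an unadjusted p below 0.05. CHID1, a chitinase domain protein, had 45.2 and 51.4 TPM in the sh-ZNF217-labelled libraries against 46.1 and 54.9 TPM in NC. CTBS, a lysosomal chitobiase, had a log2 fold change of 0.496, just under the minimum (limma adjusted p = 0.0199). With a pseudocount of 0.1 TPM, without mitochondrially encoded genes and without NC replicate 2, 1 gene of the family was called higher. CHI3L2, the closest relative of CHI3L1 in the list, had 0.526 to 1.37 TPM and was not tested, and CHIT1, the chitinase of macrophages, had no row. None of the 4 bone and tooth glycoproteins of the osteopontin family (IBSP, DMP1, DSPP and MEPE) and none of the 3 other fasciclin domain genes (POSTN, STAB1 and STAB2) had a row.

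Around haptoglobin, genes of hemoglobin and heme handling gave 1 call in 7 tested of 12 listed, with a median log2 fold change of 0.19. At an unadjusted p below 0.05 in limma, 4 were higher. HMOX1, the inducible heme oxygenase, had 72.0 and 80.3 TPM in the sh-ZNF217-labelled libraries against 42.5 and 37.9 TPM in NC (log2 fold change 0.91, SE 0.09, limma adjusted p = 0.0057). The constitutive enzyme HMOX2 and both biliverdin reductases, BLVRA and BLVRB, were not called. Haptoglobin also belongs to the acute phase proteins, of which 5 of 25 listed were tested and 2 were called higher, with a median log2 fold change of 0.96. That median is the value of ITIH4, which had 2.51 and 2.20 TPM in the sh-ZNF217-labelled libraries against 1.15 and 0.375 TPM in NC. ITIH4 was not called, nor were SERPINA1 (0.37) and LRG1 (0.15). Both ITIH4 and LRG1 share exon bases with another annotated gene on the same strand, so their levels are uncertain. C3, the central complement component, had 146 and 153 TPM in the sh-ZNF217-labelled libraries against 52.9 and 58.1 TPM in NC (log2 fold change 1.41, limma adjusted p = 0.00122). PTX3, a long pentraxin that binds microbes, had 60.7 and 61.9 TPM in the sh-ZNF217-labelled libraries against 27.5 and 30.2 TPM in NC (log2 fold change 1.06, limma adjusted p = 0.00282). Acute phase genes of the liver such as CRP, ORM1 and FGB were not tested. Among neutrophil granule genes, where haptoglobin is stored, 5 of 16 were tested. Their median log2 fold change was 0.54, which is the value of MMP8. That gene had 1.36 and 1.13 TPM in the sh-ZNF217-labelled libraries against 0.445 and 0.654 TPM in NC and was not called. It passed the filter through the sh-ZNF217-labelled libraries alone and so had to be higher there. Of the 5 tested genes PTX3 was higher. CEACAM8, an adhesion molecule of granulocytes, was lower at 3.57 and 2.32 TPM in the sh-ZNF217-labelled libraries against 7.30 and 6.86 TPM in NC (log2 fold change -1.05, limma adjusted p = 0.0286). Its call was lost without any 1 of the 4 libraries (log2 fold change -1.28 to -0.82).

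Of the pathways that act on these genes, TGF-beta signaling, known to induce TGFBI, gave 7 higher and 1 lower call in 18 tested of 21 listed, with a median log2 fold change of 0.31. Both signaling receptors were higher. TGFBR2 had 79.6 and 78.6 TPM in the sh-ZNF217-labelled libraries against 45.2 and 45.9 TPM in NC (log2 fold change 0.78, limma adjusted p = 0.00324), and TGFBR1 had a difference of 0.65 on the log2 scale (limma adjusted p = 0.00487). The inhibitors of SMAD-driven transcription SKIL (log2 fold change 1.15), SKI (0.60) and TGIF1 (0.60) were also called higher, with limma adjusted p of 0.0118, 0.0154 and 0.00935. The ligand TGFB1 had 127 and 141 TPM in the sh-ZNF217-labelled libraries against 171 and 158 TPM in NC, with a log2 fold change of -0.30 that stayed short of the minimum (limma adjusted p = 0.0497), and NRROS, which holds latent TGF-beta on myeloid cells, was lower (log2 fold change -0.58, limma adjusted p = 0.0105). The calls of SKIL, SKI and TGIF1 were lost without either sh-ZNF217-labelled library and that of NRROS without replicate 2 of them, that of SKI also without NC replicate 2, with log2 fold changes of 0.98 to 1.32, 0.49 to 0.71, 0.57 to 0.63 and -0.63 to -0.53. SMURF2, a ubiquitin ligase that acts on the receptors, was also called higher (0.52), and its call was lost without any 1 of the 4 libraries (0.45 to 0.59), with no filter and with median-of-ratios scaling (0.49). With 1 library left out, 2 to 5 genes of the pathway were called higher, and 2 without either sh-ZNF217-labelled library.

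The interleukin-6 and oncostatin pathway, a known inducer of haptoglobin in liver cells, gave 2 higher and no lower call in 12 tested of 20 listed, with a median log2 fold change of 0.29. At an unadjusted p below 0.05 in limma, 6 were higher and 2 lower. BCL3, a nuclear partner of NF-kB, was higher (log2 fold change 0.89, limma adjusted p = 0.0232), and so was IL6ST, the shared receptor chain gp130 (0.73, limma adjusted p = 0.0319). Both calls were lost without either sh-ZNF217-labelled library and without NC replicate 2, and that of IL6ST also without NC replicate 1, with log2 fold changes of 0.75 to 1.03 for BCL3 and 0.69 to 0.77 for IL6ST. The pathway then had 1 gene called higher without NC replicate 1 and none without any other library. The ligands IL6 and OSM stayed at or below 1.18 TPM, and CEBPB, a factor known to act on HP, had 114 and 129 TPM in the sh-ZNF217-labelled libraries against 155 and 143 TPM in NC (log2 fold change -0.30, limma adjusted p = 0.061).

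Genes of the matrix, to which fibronectin and TGFBI belong, gave calls in both directions. Of 60 matrix glycoproteins and collagens 22 had a row and 15 were tested, with 4 higher, 1 lower and a median log2 fold change of -0.14. LAMB3, a laminin chain, had 12.4 and 13.3 TPM in the sh-ZNF217-labelled libraries against 4.08 and 5.28 TPM in NC (log2 fold change 1.30, limma adjusted p = 0.00906). TNFAIP6, a hyaluronan-binding protein of inflammation, had 6.98 and 5.59 TPM in the sh-ZNF217-labelled libraries against 1.43 and 1.51 TPM in NC (log2 fold change 1.56, limma adjusted p = 0.00986). LTBP2 (1.29) and COL6A3 (0.90) were called higher at limma adjusted p of 0.0308 and 0.0338, LTBP2 having passed the filter through the sh-ZNF217-labelled libraries alone. SRGN, the granule proteoglycan serglycin, was the most abundant gene of the list and was lower, at 2530 and 2388 TPM in the sh-ZNF217-labelled libraries against 3483 and 3479 TPM in NC (log2 fold change -0.50, limma adjusted p = 0.00487). The call of LAMB3 was lost without either sh-ZNF217-labelled library, that of TNFAIP6 without replicate 1 and that of SRGN without replicate 2 of them, and those of LTBP2 and COL6A3 without any 1 of the 4 libraries. That of SRGN was also lost when mitochondrially encoded genes were left out of TPM (-0.47). The log2 fold changes were 1.14 to 1.45 for LAMB3, 1.42 to 1.69 for TNFAIP6, -0.54 to -0.46 for SRGN, 1.12 to 1.46 for LTBP2 and 0.85 to 0.95 for COL6A3. The genes of this list called higher were then none without sh-ZNF217 replicate 1, 1 without sh-ZNF217 replicate 2 and 2 without either NC library.

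Of 31 genes of matrix assembly and cleavage, 20 were tested, with 3 higher, 2 lower and a median log2 fold change of 0.14. MMP19, a secreted metalloproteinase, had 12.5 and 11.2 TPM in the sh-ZNF217-labelled libraries against 2.60 and 3.18 TPM in NC (log2 fold change 1.73, limma adjusted p = 0.00495). CTSS, a cathepsin that works outside the lysosome too, was higher (log2 fold change 0.99, limma adjusted p = 0.00203). The granule proteases CTSG and ELANE were lower, with log2 fold changes of -0.67 and -0.79 (limma adjusted p = 0.00238 and 0.00863). MMP9, which cleaves osteopontin, had 21.3 and 19.6 TPM in the sh-ZNF217-labelled libraries against 17.0 and 17.3 TPM in NC and was not called. The call of ELANE was lost without either sh-ZNF217-labelled library (log2 fold change -0.89 to -0.69).

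Other proteins that macrophages secrete gave the most calls of the 12 lists. Of 34 listed, 22 had a row and 21 were tested, with 13 called higher, none lower and a median log2 fold change of 0.73. At an unadjusted p below 0.05 in limma, 16 were higher and 1 lower. CXCL8, the neutrophil chemokine interleukin-8, had 478 and 466 TPM in the sh-ZNF217-labelled libraries against 146 and 147 TPM in NC (log2 fold change 1.68, limma adjusted p = 0.000329). IL1B, the cytokine interleukin-1 beta, had 38.0 and 46.8 TPM in the sh-ZNF217-labelled libraries against 6.48 and 6.55 TPM in NC (log2 fold change 2.52, limma adjusted p = 0.00122). GPNMB, a glycoprotein whose outer part is shed, had 827 and 807 TPM in the sh-ZNF217-labelled libraries against 358 and 372 TPM in NC (log2 fold change 1.16, limma adjusted p = 0.00068). The lysosomal proteins FUCA1 (log2 fold change 1.33), CTSD (0.92) and PSAP (0.86), which are also released, were higher at limma adjusted p of 0.00068, 0.000973 and 0.00126. The macrophage apolipoprotein APOE, at 1.43 and 1.34 TPM in the sh-ZNF217-labelled libraries against 0.281 and 0.884 TPM in NC, and the growth factor VEGFA were not called. APOE passed the filter through the sh-ZNF217-labelled libraries alone and so had to be higher there. The same held for PDGFB, which was not called either. With 1 library left out, 11 to 12 of the list were called higher. The 12 lists held 239 distinct genes, of which 111 were tested, 34 called higher and 5 lower. Over all 14582 tested genes 6.26% were called higher and 2.46% lower. The lists overlap, and PTX3, for example, counts in a pair of them. Exon bases are shared with another annotated gene on the other strand by ITGAV, ITGB1, CD44, MMP9, MMP19, LTBP2, PTX3, SMURF2, TGFB1, IL6, IL6ST, CEBPB, HMOX2, VEGFA and LYZ, and on the same strand by C3, CTSD, CTBS, CD163, APOE, LAMB3, BCL3 and NRROS, so the levels of these genes are uncertain.

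**Figure D3:**
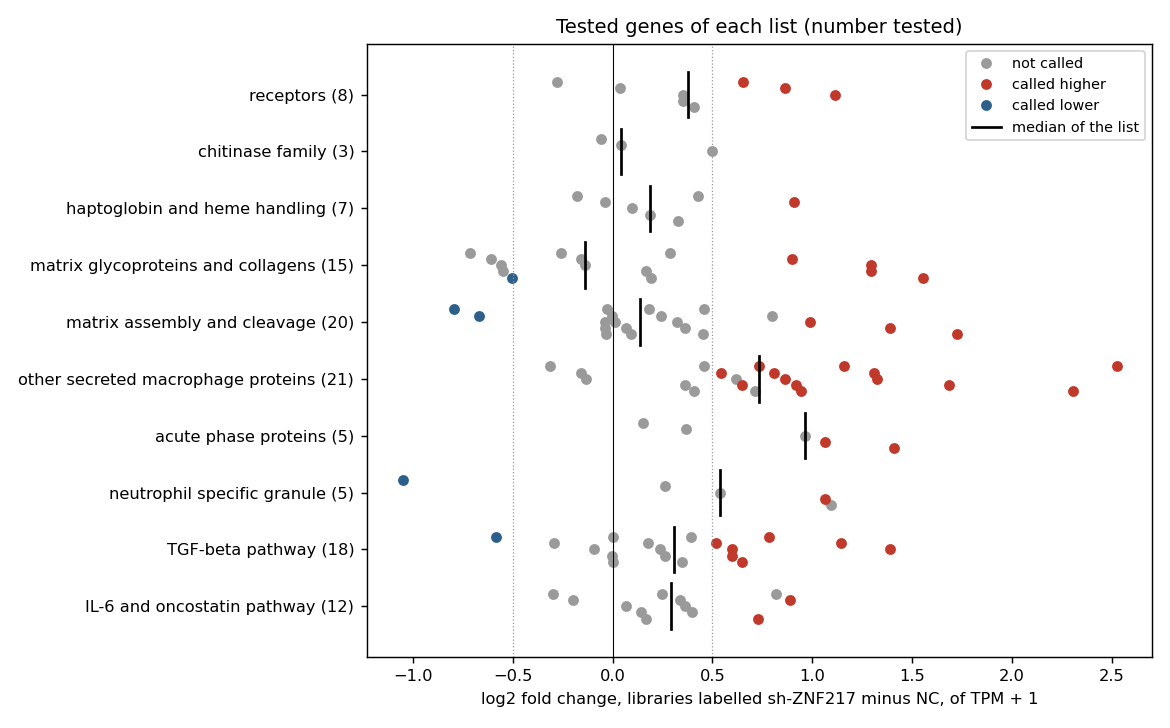
Log2 fold change of TPM + 1, sh-ZNF217-labelled libraries minus NC, of each tested gene in the 10 lists with tested genes, with red points called higher, blue points called lower, grey points not called, a black line at the median of the list and dotted lines at the 0.5 minimum. Points are spread vertically for legibility only. The median is 0.73 for other secreted macrophage proteins and -0.14 for matrix glycoproteins and collagens, and the matrix lists hold points on both sides of 0.

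The genes next to the 5 genes on the chromosome were tested, since they played no part in the choice. Of 30 neighbours, the 3 nearest tested genes on each side of the 5 genes, 3 were called higher and 1 lower. Over all 14582 tested genes the shares were 6.26% higher and 2.46% lower, so nothing is read from the neighbour counts. The gene nearest CHI3L1, MYBPH, 10.9 kb away, had 2.75 and 2.73 TPM in the sh-ZNF217-labelled libraries against 2.16 and 3.38 TPM in NC (log2 fold change 0.01). BTG2, an antiproliferative gene 119 kb from CHI3L1, was higher (log2 fold change 1.09, limma adjusted p = 0.00427), and CYB5R1, a reductase gene 219 kb away on the other side, with 0.60 (limma adjusted p = 0.0199). PKD2, 32.0 kb from SPP1, had a difference of 0.26 on the log2 scale (limma adjusted p = 0.225), and HERC6, an interferon-inducible ubiquitin ligase gene 403 kb away, was higher with 0.86 (limma adjusted p = 0.0187). Beside HP, DHX38 and TXNL4B, at 39.1 and 39.9 kb, had log2 fold changes of 0.06 and -0.01, and PMFBP1, 122 kb away, was lower with -0.96 (limma adjusted p = 0.0469). PMFBP1 had 0.608 and 0.741 TPM in the sh-ZNF217-labelled libraries against 2.20 and 2.29 TPM in NC. It passed the filter through the NC libraries alone and so had to be lower in the sh-ZNF217-labelled libraries. None of the 6 neighbours of FN1 and none of the 6 of TGFBI was called by limma, and 3 and 1 of them had an unadjusted p below 0.05. The call of PMFBP1, which shares exon bases with DHX38 on the other strand, was lost without any 1 of the 4 libraries (-1.01 to -0.90), and those of CYB5R1 (0.50 to 0.69) and HERC6 (0.77 to 0.95) without either sh-ZNF217-labelled library and without NC replicate 2.

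**Figure D4:**
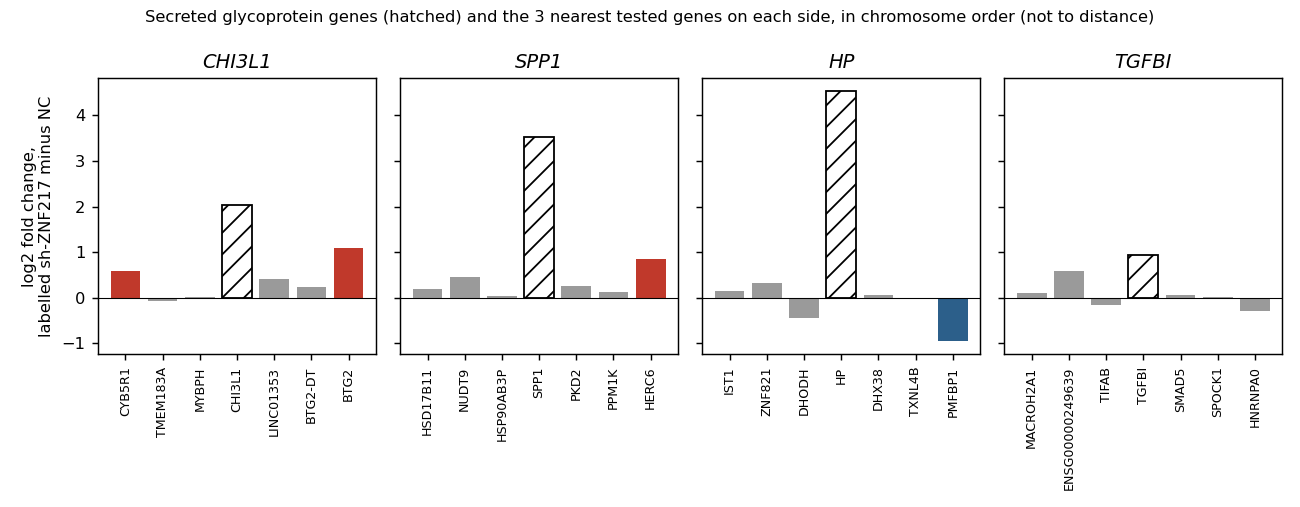
Log2 fold change of TPM + 1, sh-ZNF217-labelled libraries minus NC, of CHI3L1, SPP1, HP and TGFBI (hatched bars) and of the 3 nearest tested genes on each side in chromosome order, with red bars called higher, blue bars called lower and grey bars not called. The hatched bars reach 2.03, 3.54, 4.53 and 0.94, and the largest bar among the neighbours is that of BTG2 at 1.09.

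The 3 genes with the profile most like each of the 4 genes were taken among 9344 protein-coding genes with a mean of at least 5 TPM, by the Euclidean distance of log2(TPM + 1) values centred on their mean over the 4 libraries. With 4 libraries this is a description of likeness. CHI3L1 had close matches in CLEC7A, the beta-glucan receptor dectin-1 (distance 0.07), MS4A4A, a macrophage membrane protein (0.07), and SLC7A11, the cystine transporter (0.12). CLEC7A had 22.6 and 23.3 TPM in the sh-ZNF217-labelled libraries against 4.57 and 5.65 TPM in NC, a level far below that of CHI3L1 with nearly the same difference between groups. SPP1 and HP were most like the same 3 genes, which were FABP4, a fatty acid carrier of macrophages, OLR1, the receptor for oxidized LDL, and CD36, a scavenger receptor. Their distances were 0.76 to 0.87 for SPP1 and 1.69 to 1.92 for HP, so the likeness of HP was loose. FABP4 had 44.4 and 46.9 TPM in the sh-ZNF217-labelled libraries against 3.66 and 3.77 TPM in NC, and so did not share the gap between the NC libraries. HP and SPP1 lay at a distance of 1.10, nearer to each other than HP was to FABP4. TGFBI was most like TRAF3IP2, TMEM52B and BCL3 (0.08 to 0.12). That likeness holds on the scale of TPM + 1 only, which understates the change of a gene as low as TGFBI. The ratio of means, sh-ZNF217-labelled libraries over NC, was 5.46 for TGFBI, against 2.16 for TRAF3IP2, 2.01 for TMEM52B and 1.97 for BCL3.

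**Figure D5:**
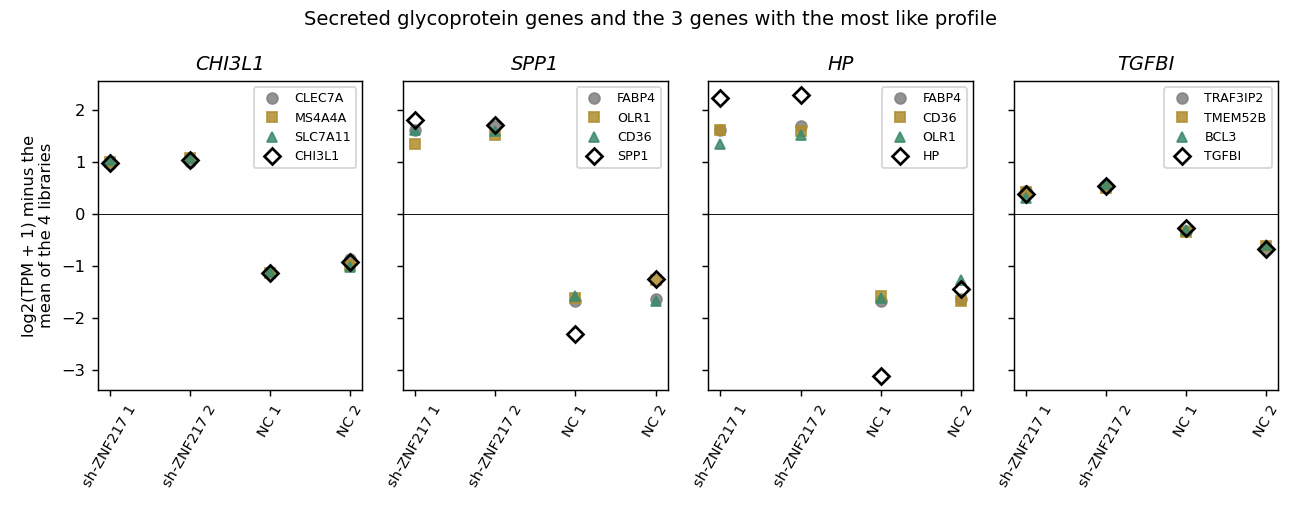
Log2(TPM + 1) minus the mean of the 4 libraries, by library, for CHI3L1, SPP1, HP and TGFBI (open diamonds) and for the 3 genes with the most like profile (filled symbols). The diamonds of CHI3L1 and TGFBI coincide with their neighbours in profile, at distances of 0.07 to 0.12 and 0.08 to 0.12, while SPP1 and HP lie below theirs in NC replicate 1. For TGFBI, which was low in all libraries, this holds on the scale of TPM + 1 only.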

How the data were processed

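Total RNA of U937 cells was extracted with Trizol and made into 4 Illumina TruSeq libraries. Reads were aligned by the authors with HISAT2 (version 2.0.5) to hg38, per the submitters' processing notes. What quantifier, annotation and strand setting followed, and the depth, is not given in the sources used here. Deposited values were taken as TPM because the columns summed to 998932 to 999282 and levels were not lower for shorter transcripts, although the study's methods name FPM. Each listed gene summed to 0.8 TPM or more. The column names of the libraries labelled sh-ZNF217 hold ZNF but not the label in full. GENCODE 44 named 16143 of 17656 identifiers.

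Values were transformed to log2(TPM + 1), which understates changes of low genes. Genes at 1 TPM or more in 2 libraries (14582) entered limma (version 3.58.1, R 4.3.3) with group as the only term and trended, robust empirical Bayes, and p-values were adjusted over them by Benjamini-Hochberg. The procedure was tested on simulated data. The 5 genes, the lists and the motifs were chosen with earlier results of these data known, so the 5 genes are given without p-values and the lists by counts and medians. Named genes were the 5 genes, ZNF217, up to 6 called genes per list with the smallest p, defining genes of a list, the neighbours, and the 3 genes of most like profile. Alternatives were a pseudocount of 0.1, no filter, a mean of at least 5 TPM, median-of-ratios scaling, TPM without mitochondrially encoded genes, plain moderation, a replicate block, and leaving out each library. Plots came from matplotlib 3.10.9 (Python 3.11.15). One gene of the lists is counted in them but not reported here by name.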

Additional observations from a re-analysis of the deposited data

How the results depend on the processing

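The genes called higher and lower were 913 and 359, and 560 and 163 with plain moderation. Leaving out 1 library gave 294 to 712 higher and 129 to 317 lower. With a pseudocount of 0.1 the log2 fold change was 5.54 for HP and 2.26 for TGFBI. CHI3L1 stayed at 1.93 to 2.14 under every alternative run for it. The listed genes called higher were 34, and 20 to 28 without 1 library. Those called lower were 5, with 3 under plain moderation and 2 to 4 without 1 library. The 3 neighbours called higher were 1 to 3 without 1 library, and the 1 called lower was 0 with a pseudocount of 0.1, with a mean of at least 5 TPM, with the replicate block and without any 1 library. Of 43 called list genes and neighbours, 21 kept their call under each alternative in which they were tested, and none reversed. Plain moderation ended the calls of BCL3, SMURF2, SRGN, CEACAM8, CFP, SKI, CYB5R1 and NRROS. Libraries with the same replicate number showed no shared shift (correlation of deviations -0.00534 over 14582 genes). With 2 libraries per group this cannot exclude a pairing, on which the labels are silent. With the replicate block 749 genes were called higher and 300 lower, and the calls of SMURF2, PMFBP1, CFP, IL6ST and COL6A3 were lost. TPM keeps no depth, so no counting error could be given for low levels such as those of TGFBI and of HP in NC.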
